A study of Mus musculus with 12 samples.

Results

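The HoxB cluster genes Hoxb2, Hoxb3, Hoxb4, Hoxb5, Hoxb6, Hoxb7, Hoxb8 and Hoxb9 were examined in mouse bone marrow cells that carried a NUP98-HOX fusion. Every probe set of the MOE430A array annotated to 1 of these 8 genes was taken, which gave 9 of the 22690 probe sets on the array. Of these, 8 carried a single symbol and stood for 7 genes, with 2 probe sets for Hoxb4. The ninth, 1452493_s_at, was shared by Hoxb7 and Hoxb8, so that Hoxb8 had no probe set of its own. Along the chromosome the genes follow each other as Hoxb9, Hoxb8, Hoxb7, Hoxb6, Hoxb5, Hoxb4, Hoxb3 and Hoxb2.

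Hox genes encode transcription factors that bind DNA through a homeodomain, often together with Pbx and Meis proteins. They lie in clusters and are switched on in the order in which they stand in the cluster, and Trithorax proteins keep them active while Polycomb proteins keep them silent. In blood formation they are most active in stem and early progenitor cells and fade as cells mature. Hoxb4 is known for expanding hematopoietic stem cells when it is overexpressed, and Hoxb5 is used as a marker of long-term stem cells in mice.

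The study asked which genes respond to NUP98-HOX fusions in primitive bone marrow cells and whether this needs DNA binding. RNA came from (C57Bl/6Ly-Pep3b x C3H/HeJ) F1 mice older than 12 weeks that had received fluorouracil at 150 mg/kg 4 days before harvest, and the cells of all groups were grown with hIL-6, IL-3 and SCF, cocultured for 2 days with irradiated GP+E86 virus producer cells, and sorted as GFP+, Sca-1+, Lin- at 24 hours after transduction. There were 3 arrays for each of 4 groups. The GFP control carried the MSCV vector with GFP only, ND13 carried NUP98-HOXD13, NA10 carried NUP98-HOXA10, and ND13(N51S) carried NUP98-HOXD13 with a mutation in the homeodomain that is meant to stop DNA binding. The fusions were driven by the retroviral vector, every cell also kept its own Hox genes, and the sorted cells were enriched for GFP but not pure.

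The MAS5 signals had equal trimmed means, between 500.16 and 500.19, and the number of arrays limited the precision. A signal was called above background when it exceeded the 95th percentile of the 27 bacterial control probe sets of its array, a level of 28.5 to 69.8. Both extremes bear on the HoxB genes, since the GFP control replicate 2 had the lowest background and ND13 replicate 3 the highest. There was doubt about 2 arrays. The experiment record of GFP control replicate 1 describes sorted cells without GFP that came from an ND13(N51S) culture, and the label was followed here. In ND13(N51S) replicate 2 the 3' end of Gapdh read 48.9 times the 5' end, a mark of RNA quality, where the other 11 arrays gave 1.90 to 2.71. The constructs could not be checked from their Hox parts. Hoxd13 was below background on all arrays, those of ND13 included, and Hoxa10 had signals of 110 to 332 in NA10 and 100 to 119 in the GFP control, and whether these probe sets lie in the fused part is not known. Of 8 markers of the lineages removed by the sort 5 were measured, with summed signals of 169 to 299 per array.

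Of the 8 genes, 2 had a promoter window in the RefSeq-derived table (build GRCm38.p6), Hoxb4 and Hoxb8. The bases upstream of the Hoxb4 start are shown because the brighter of the 2 Hoxb4 probe sets (1460379_at) passed the unadjusted thresholds against the GFP control in NA10 in 23 of 23 settings. The other probe set (1451761_at) passed in 0 of 21. The window lies at chr11:96318017-96318266 on the plus strand and runs 5' to 3'.
Hoxb4 promoter: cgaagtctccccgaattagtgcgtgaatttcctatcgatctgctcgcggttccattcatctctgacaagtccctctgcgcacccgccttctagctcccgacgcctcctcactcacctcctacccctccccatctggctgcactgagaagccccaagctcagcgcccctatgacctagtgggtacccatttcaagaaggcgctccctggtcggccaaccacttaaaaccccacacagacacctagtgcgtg
No capitals appear in it, since none of the 5 motifs searched on both strands was found: TGATNNAT (Hox with Pbx), TTTATNA (Cdx), CCAAT (NF-Y), CACGTG (Usf) and TATAAA. Read on the reverse strand, TATAAA overlaps TTTATNA in its letters. In the table of 32851 windows, searched over the same 250 bases before the start, these were found in 7.68%, 12.8%, 33.8%, 6.02% and 12.4%, in this order. The absence of a match says only that these letters were not in the window. The Hoxb8 window held 1 match each for TGATNNAT, TTTATNA and CCAAT and 2 for TATAAA, but with no probe set of its own Hoxb8 could not be set beside it.

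Before any comparison, the genes differed in whether they were measured at all. Hoxb4 (both probe sets) and Hoxb7 were above background on 12 of 12 arrays and Hoxb2 on 11 of 12. Hoxb3 was above it on 6, Hoxb5 on 4, Hoxb6 and Hoxb9 on 2 each, and the probe set shared by Hoxb7 and Hoxb8 on 1. In a bulk RNA sample, fewer cells that express a gene and less RNA per cell cannot be told apart.

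**Figure D1:**
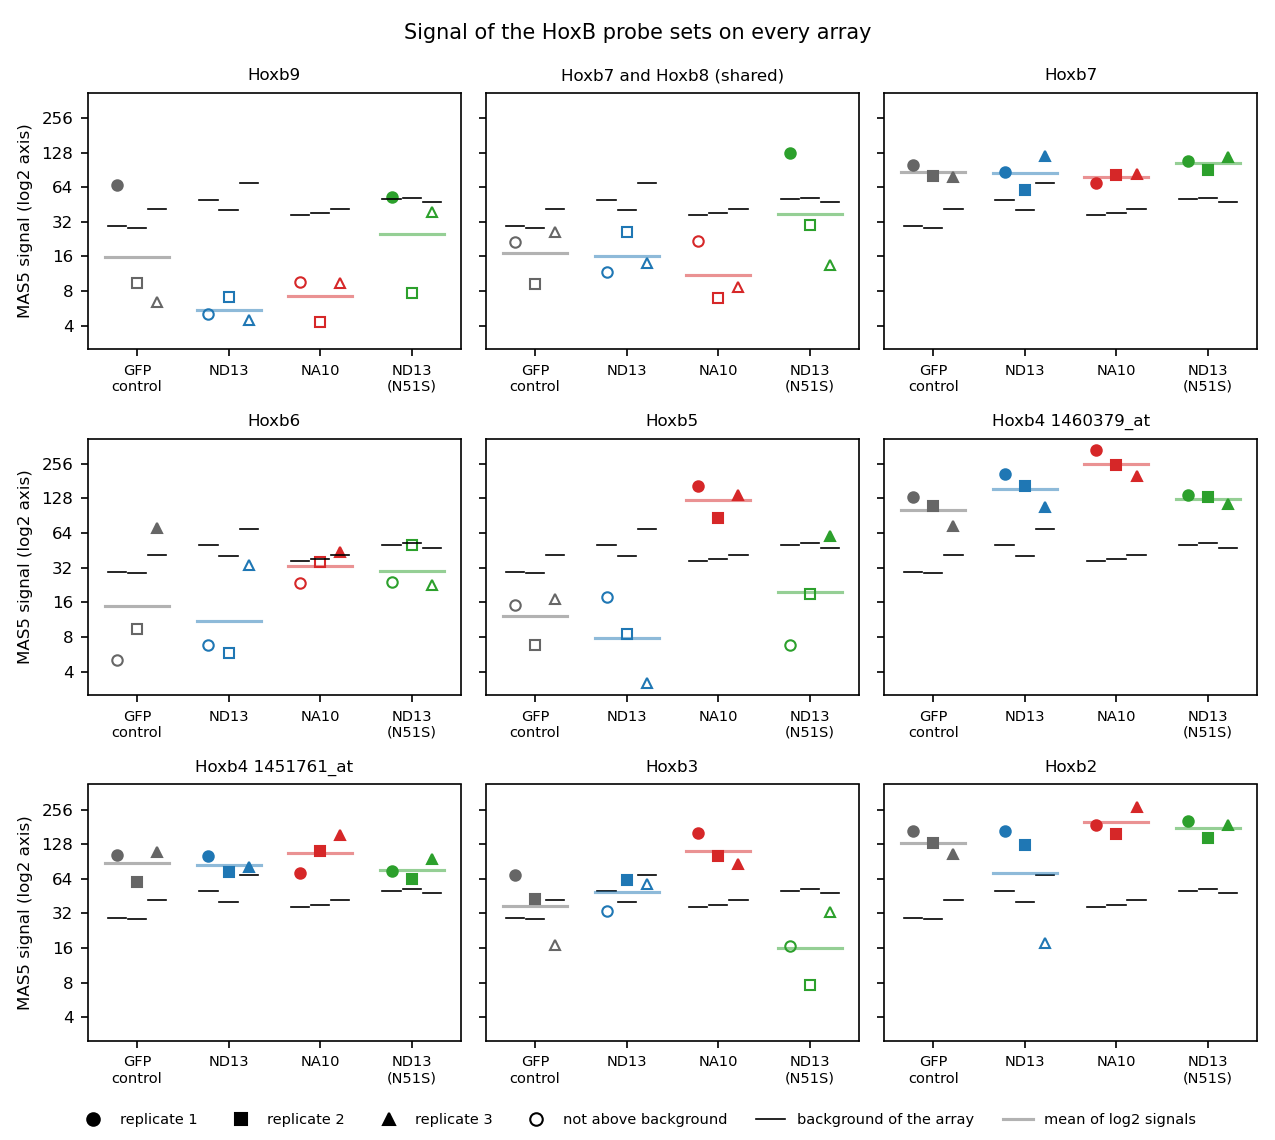
MAS5 signal (log2 axis) of each HoxB probe set on the 12 arrays, with symbols for the replicate number, short black lines for the background of each array and coloured lines for the group mean of log2 signals. Filled points are above background. The 3 NA10 arrays of Hoxb5 lie at 85.7 to 165, while of the other 9 arrays 1 is above background.

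In cells carrying NA10, the signals of Hoxb3, Hoxb5 and the brighter of the 2 Hoxb4 probe sets (1460379_at) were higher than in the GFP control on every array. The second Hoxb4 probe set and those of the other HoxB genes were not separated. None of the 8 probe sets passed the adjusted test (limma, adjusted p under 0.05 and a 1.5-fold change), which 0.0133% of all 22626 probe sets did. At an unadjusted p under 0.05 with the same fold, 3 of 8 were higher, namely Hoxb3, Hoxb4 (1460379_at) and Hoxb5, beside 2.51% of all probe sets. The same 3 had all NA10 arrays above all GFP control arrays, a separation seen in 5.6% of all probe sets. Under the methods' t-test at the same thresholds 2 of 8 passed, Hoxb4 (1460379_at) and Hoxb5, beside 3.2%, and 0 passed after adjustment.

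Hoxb5 showed the widest gap. Its probe set 1418415_at read 15.3, 6.83 and 17.1 in the GFP control replicates 1 to 3, all below background, and 165, 85.7 and 136 in NA10, all above it. Signals in ND13 were 17.8, 8.47 and 3.16, and in ND13(N51S) 6.85, 18.8 and 60.7. Thus Hoxb5 was measured above background in all 3 NA10 arrays and in 1 other array, ND13(N51S) replicate 3, which was still below every NA10 array. With the GFP control set at the background level, NA10 was at least 3.82-fold higher. The difference in mean log2 signal was 3.36 ± 0.87 (SE, limma), with an unadjusted p of 0.00192 and an adjusted p of 0.713.

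Hoxb4 was above background on every array, the controls included. Its brighter probe set, 1460379_at, is meant in the following wherever Hoxb4 stands alone. It read 132, 111 and 73.2 in the GFP control, and 335, 252 and 201 in NA10. The ND13 arrays read 209, 164 and 108, and those of ND13(N51S) 136, 132 and 114. NA10 thus did not overlap the GFP control or ND13(N51S), while ND13 overlapped every other group. The means ordered the groups as NA10 (263 ± 67.5, SD, n = 3), ND13 (160 ± 50.6), ND13(N51S) (127 ± 11.6) and GFP control (105 ± 29.7). The arrays of ND13, ND13(N51S) and the GFP control overlapped. This spread includes differences between replicate numbers, which are taken up below. Against the GFP control, NA10 differed by 1.33 ± 0.33 on the log2 scale (2.52-fold), with an unadjusted p of 0.00127 and an adjusted p of 0.552 in limma.

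Within replicate numbers the Hoxb4 differences of NA10 and of ND13 from the GFP control spread little. NA10 over the GFP control of the same number was 2.54, 2.28 and 2.75-fold, and ND13 over the GFP control 1.58, 1.49 and 1.47-fold. The mutant ND13(N51S) was also higher in each number, at 1.03, 1.19 and 1.56-fold, and in replicate 3 it was above ND13. Replicate 1 was above its group mean in 4 of 4 groups and replicate 3 in 0 of 4. The other HoxB probe sets did not all share this order. For Hoxb6, replicate 1 was above in 0 of 4 groups and replicate 3 in 3. With the replicate number as a block in limma, the adjusted p of NA10 against the GFP control was 0.112. In the same blocked fit ND13 passed the unadjusted thresholds against the GFP control, with an unadjusted p of 0.0301 and an adjusted p of 0.517 in limma. Without the block the unadjusted p was 0.0912 in limma. That raised the count for ND13 from 0 to 1 of 8 HoxB probe sets, beside 6% of all probe sets under the block.

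The second Hoxb4 probe set, 1451761_at, did not follow the first. It read 103, 59.9 and 110 in the GFP control and 72.1, 111 and 154 in NA10, so that the groups overlapped. The difference was 0.29 ± 0.39 on the log2 scale with a 95% interval of -0.55 to 1.12, which overlaps that of the first probe set (0.63 to 2.04). Over the 12 arrays the pair of probe sets correlated at r = 0.12, although the platform annotation gives both the same source sequence. The study also measured Hoxb4 by quantitative RT-PCR on unamplified RNA. It reports a higher level than in the GFP control in NA10 and, by less, in ND13, and a lower level in ND13(N51S). Here the log2 difference of ND13(N51S) from the GFP control was 0.31 ± 0.33 at the first probe set and -0.20 ± 0.39 at the second. Which of the probe sets reads the Hoxb4 transcript better was not tested here.

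Hoxb3, whose annotated span in the gene table contains Hoxb4, was close to background outside NA10. Probe set 1427605_at read 69.7, 42.9 and 16.9 in the GFP control, 33.5, 62.9 and 57.4 in ND13, 161, 101 and 85.7 in NA10, and 16.8, 7.59 and 32.9 in ND13(N51S). All 3 NA10 arrays were above background and none of ND13(N51S). Hoxb3 in NA10 exceeded the GFP control by 1.59 ± 0.67 on the log2 scale (3.02-fold), with an unadjusted p of 0.0337 and an adjusted p of 0.9999 in limma. This call rested on single arrays, as the unadjusted p was 0.153 without GFP control replicate 3.

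Stem and progenitor markers were compared on the same arrays. Of 12 listed genes, such as Ly6a (which encodes the sorted antigen Sca-1), Kit and Cd34, 10 were measured by 16 probe sets. In NA10 against the GFP control 0 of 16 passed the adjusted test, and 4 were higher at the unadjusted thresholds, beside 2.51% of all probe sets. Their median log2 difference was 0.21. In ND13 against the GFP control 3 of 16 were higher, beside 3.43% of all probe sets, with a median of 0.14. ND13(N51S) had a median of 0.34 with 0 past the unadjusted thresholds. The sum of their signals, which the brightest genes carry, was 11331 to 13272 in NA10 and 7973 to 10202 in the GFP control, without overlap, against 9574 to 10029 in ND13 and 9919 to 11286 in ND13(N51S). All 10 genes were above background in every group. Hlf, a stem cell transcription factor on that list, was also among the probe sets most like Hoxb4 across the arrays. The study reports Hlf, Procr and Flt3 of this list as induced by both ND13 and NA10. For these genes a change in cell composition and a response within cells cannot be told apart in bulk RNA. The part of these markers in the HoxB signals was not tested.

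**Figure D2:**
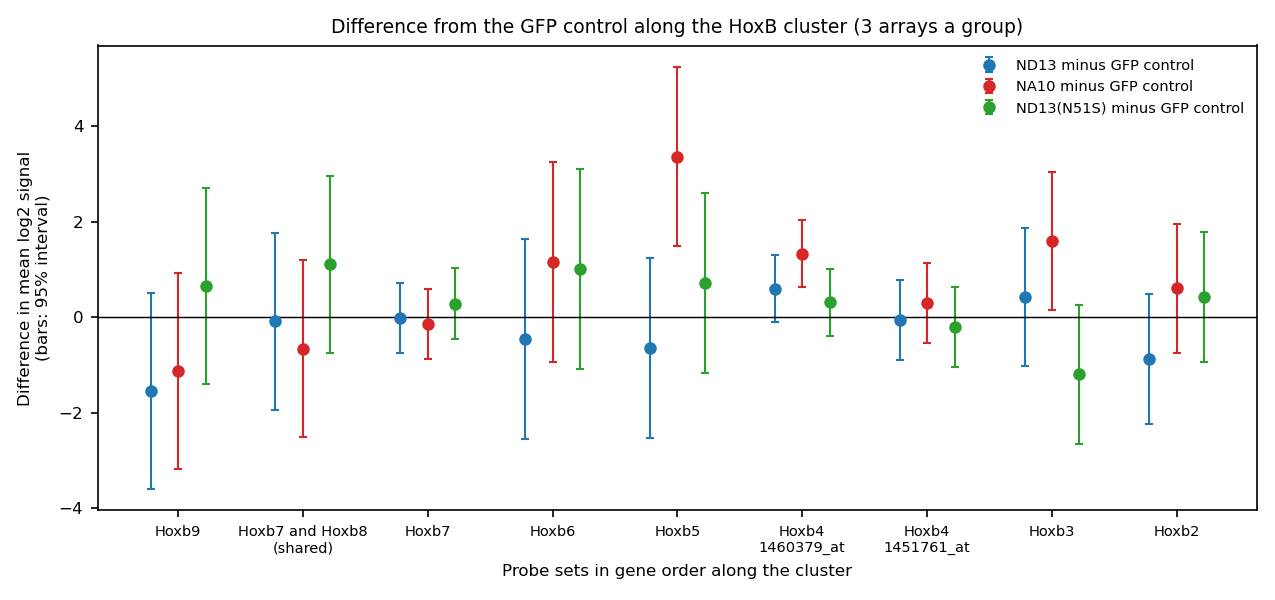
Difference in mean log2 signal between each construct and the GFP control (3 arrays a group) for the HoxB probe sets in cluster order, with 95% intervals from limma. The intervals of NA10 lie above 0 for Hoxb5 (1.48 to 5.24), the first Hoxb4 probe set and Hoxb3, and all other intervals include 0.

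The remaining HoxB genes showed no separation of NA10 from the GFP control. Hoxb2, a gene of hindbrain patterning, read 166, 132 and 105 in the GFP control and 187, 157 and 272 in NA10, a difference of 0.60 ± 0.63 on the log2 scale. Hoxb7, whose promoter is widely used to mark the developing ureter, was at 79.2 to 101 in the GFP control and 69.7 to 84.3 in NA10. Its log2 difference was -0.14 with a 95% interval of -0.88 to 0.60. Hoxb6 was at 5.00, 9.44 and 70.9 in the GFP control and 23.7, 35.5 and 43.7 in NA10, and Hoxb9, at the far end of the cluster, was below background on all 3 NA10 arrays. The median log2 difference over the 8 HoxB probe sets was 0.88 with 6 higher, beside -0.01 over all probe sets. It lies between the values of Hoxb2 (0.60) and Hoxb6 (1.15), neither of which was separated. Hoxb6 was above background on 1 of 3 arrays in each group. Over the alternative settings the median ranged from 0.39, with 32 added to each signal, to 1.15, with a single probe set for each gene.

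In cells carrying ND13 no HoxB gene stood apart from the GFP control in the fit without the replicate block, while with the block Hoxb4 passed the unadjusted thresholds, as given above. With limma, 0 of 8 probe sets passed the adjusted test, beside 0.0884% of all probe sets, and 0 of 8 had an unadjusted p under 0.05, beside 5.73%. The methods' t-test gave 0 of 8 as well, beside 3.74%. The median difference was -0.25 on the log2 scale, with 2 higher and 6 lower, beside 0.00 over all probe sets. This median depended on single arrays. It was 0.03 without ND13 replicate 2, -0.01 without ND13 replicate 3 and -0.56 without GFP control replicate 2. The largest positive value belonged to Hoxb4 (0.60, 95% interval -0.11 to 1.30). Without ND13 replicate 3 it was 0.86 and passed the unadjusted thresholds, at an unadjusted p of 0.0262 and an adjusted p of 0.782 in limma. Hoxb9 read 5.08, 7.09 and 4.52, all below background, against 67.0, 9.39 and 6.48 in the GFP control. Hoxb2 depended on 1 array. It read 166 and 126 in ND13 replicates 1 and 2 but 17.8 in replicate 3, the array with the highest background, and the log2 difference from the GFP control of -0.87 became 0.14 without that replicate.

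The mutant ND13(N51S) also gave no HoxB call against the GFP control. In limma 0 of 8 probe sets passed the adjusted test and 0 of 8 had an unadjusted p under 0.05, beside 0% and 7.65% of all probe sets, and the methods' t-test gave 0, beside 4.08%. The median was 0.37 on the log2 scale, with 6 higher, beside 0.07 over all probe sets. Hoxb3 had the lowest value, -1.19 ± 0.67, with no array above background, but this became 0.09 with the replicate block and without both arrays in doubt. Hoxb9 read 52.3, 7.71 and 38.8, of which 1 array was above background, and its difference of 0.65 moved to 0.00 without GFP control replicate 3 and to 2.53 without both arrays in doubt. The shared probe set of Hoxb7 and Hoxb8, a gene known for holding myeloid progenitors in an immature state, read 126 in ND13(N51S) replicate 1 and 30.2 and 13.6 in the other replicates. That was its only value above background, where the GFP control read 21.4, 9.25 and 26.2. Markers of other cell types ranged higher in ND13(N51S), with an overlap of the groups. The summed signal of the 10 fibroblast markers was 1556 to 2180, against 1079 to 1617 in the GFP control, and that of the 6 macrophage markers 6979 to 16269 against 4830 to 9525. For macrophages this was not particular to the mutant. In ND13 their sums were 8280 to 11732, with a median log2 difference of 0.81, beside 0.79 in ND13(N51S). Of 8 macrophage probe sets 4 were higher in ND13(N51S) and 3 in ND13 at the unadjusted thresholds, beside 4.37% and 3.43% of all probe sets. All 6 macrophage markers were above background on every array. Of the 10 fibroblast markers, 7 were so on all 3 arrays of ND13(N51S), 5 in NA10, 4 in ND13 and 4 in the GFP control. The part of the markers of both lists in the HoxB values was not tested.

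The fusions were also set against ND13(N51S), the homeodomain mutant of ND13. NA10 differs from this mutant in its HOX part as well, so a need for an intact homeodomain cannot be read from that comparison. Only ND13 against ND13(N51S) is a matched pair. For NA10, 0 of 8 probe sets passed the adjusted test (0.00884% of all), and 3 of 8 were higher at the unadjusted thresholds, beside 2.94% of all probe sets. The methods' t-test also gave 3, beside 5.47% in either direction. These were Hoxb3, Hoxb4 (1460379_at) and Hoxb5, the probe sets that had passed against the GFP control, and since both comparisons share the NA10 arrays they are not independent. With ND13(N51S) set at background, Hoxb3 in NA10 was at least 2.23-fold higher (log2 2.79 ± 0.67, unadjusted p = 0.0011, adjusted p = 0.306). Hoxb5 differed by 2.65 ± 0.87 (unadjusted p = 0.00932) and Hoxb4 by 1.02 ± 0.33 (unadjusted p = 0.00805), with adjusted p of 0.424 and 0.418 in limma. All 3 NA10 arrays of these 3 probe sets were above all 3 arrays of ND13(N51S), a separation seen in 4.3% of all probe sets. For the second Hoxb4 probe set the groups overlapped. Markers of other cell types were lower in NA10 in the same comparison by their summed signals. The macrophage sums were 6107 to 6850 in NA10, all below those of ND13(N51S), with 3 of 8 probe sets lower at the unadjusted thresholds. The fibroblast sums were 1068 to 1441 in NA10, again without overlap, with 3 of 19 lower and 1 higher, beside 4.85% of all probe sets lower. The part of these markers in the HoxB differences was not tested.

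For ND13 against ND13(N51S), 0 of 8 probe sets passed the adjusted test (0.0133% of all). At the unadjusted thresholds 2 of 8 passed, beside 6.99% of all probe sets, with Hoxb3 higher (1.62 ± 0.67) and Hoxb9 lower (-2.19 ± 0.95). The methods' t-test gave 0, beside 4.36%. Hoxb4 differed by 0.28 ± 0.33, with an unadjusted p in limma of 0.402, and of 0.265 with the replicate block. Hoxb3 was above background on 1 ND13 array and on no ND13(N51S) array, and the closest values of the groups were 33.5 and 32.9. Hoxb9 was below background on all 3 ND13 arrays and on 2 of 3 ND13(N51S) arrays. The count of 2 fell to 0 or 1 in 12 of 24 alternative settings.

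The fusions themselves also differed at the unadjusted thresholds. In ND13 against NA10, 0 of 8 HoxB probe sets passed the adjusted test (0.0177% of all), and 3 of 8 were lower in ND13 at the unadjusted thresholds, beside 1.34% of all probe sets lower. Hoxb5 was at least 2.39-fold lower in ND13 than in NA10 (log2 -4.00 ± 0.87, unadjusted p = 0.000484, adjusted p = 0.645 in limma), and Hoxb4 differed by -0.73 ± 0.33 with an overlap of the arrays (unadjusted p = 0.0422). Single arrays decided the Hoxb4 call, which came to -0.47 (unadjusted p = 0.187 in limma) without ND13 replicate 3 and to -0.54 (unadjusted p = 0.165 in limma) without NA10 replicate 1. It did not pass under the methods' t-test. Hoxb2 differed by -1.47 ± 0.63, which came to -0.46 without ND13 replicate 3. The methods' t-test gave 2, Hoxb3 and Hoxb5, beside 2.89% of all. Over the HoxB probe sets the median was -0.95, with 7 of 8 lower in ND13, beside 0.01 over all probe sets. The macrophage marker sums did not overlap either, at 8280 to 11732 in ND13 and 6107 to 6850 in NA10, and 1 of their 8 probe sets was higher in ND13 at the unadjusted thresholds, beside 1.98% of all probe sets. The median log2 difference of these markers was 0.67, and their part in the HoxB differences was not tested.

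When both active fusions were set against both controls, 0 of 8 HoxB probe sets passed the adjusted test (0.0354% of all) and 3 of 8 the unadjusted thresholds, beside 5.34%. The methods' t-test gave 3 as well, beside 4.34%. Hoxb3 (1.60 ± 0.48) and Hoxb4 (0.81 ± 0.23) were higher and Hoxb9 gave -1.66 ± 0.67. Hoxb9, however, was above background on 0 of 6 active and 2 of 6 control arrays, so that its difference lies between values that were mostly not measured. Hoxb4 came closest to the adjusted threshold, at an adjusted p of 0.383 and 0.0944 with the replicate block. No HoxB probe set kept all 6 active arrays above all 6 controls, as 0.371% of all probe sets did.

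**Figure D3:**
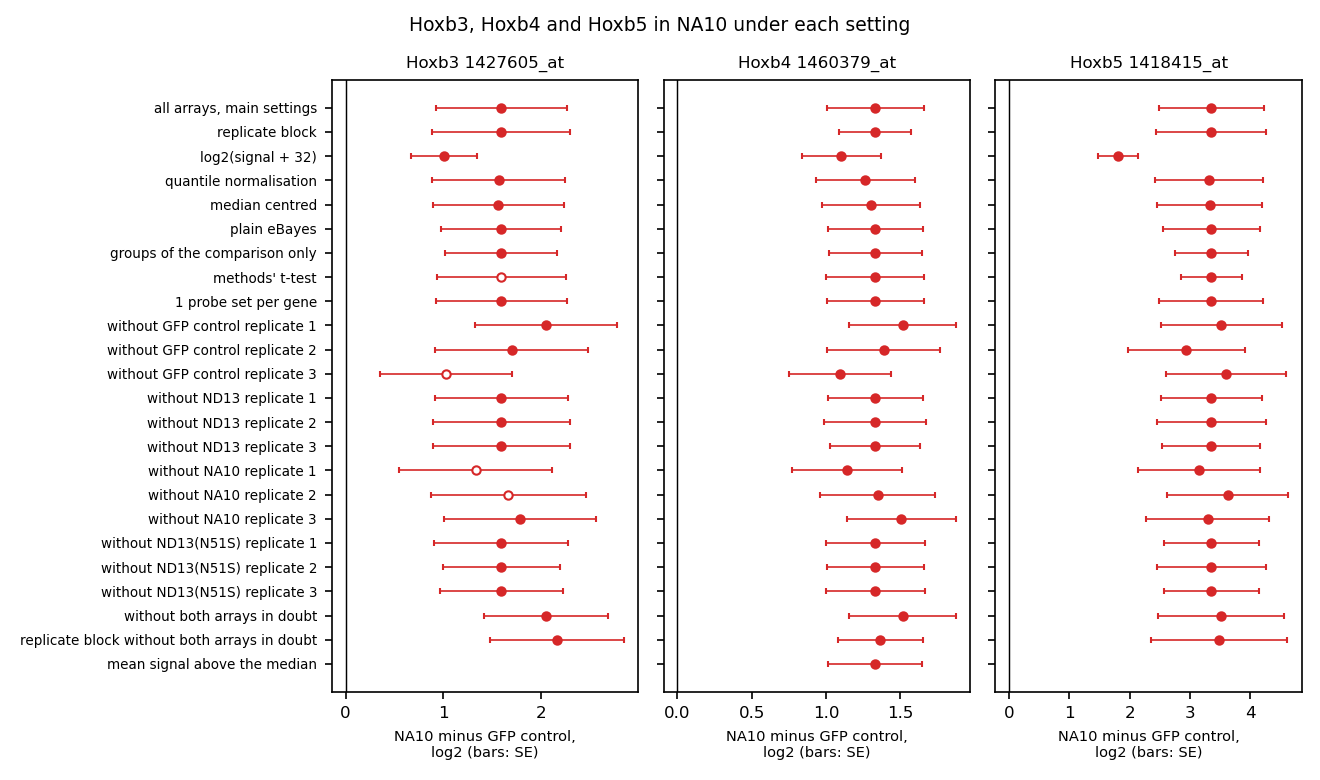
Log2 difference of NA10 from the GFP control, with its SE, for Hoxb3, Hoxb4 (1460379_at) and Hoxb5 under the settings named at the left. Filled points pass an unadjusted p under 0.05 with a 1.5-fold change. All values lie above 0, and the open points, 4 in all, belong to Hoxb3.

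The higher signals of Hoxb3, Hoxb4 (1460379_at) and Hoxb5 in NA10 were followed through the alternative settings. Hoxb4 passed the unadjusted thresholds against the GFP control in 23 of 23 settings, with log2 differences between 1.09 and 1.51, and Hoxb5 in 22 of 22, between 1.81 with 32 added to each signal and 3.63. Hoxb3 passed in 18 of 22. It did not pass with the methods' t-test, without NA10 replicate 1 or 2, or without GFP control replicate 3. Without GFP control replicate 2 its unadjusted p was 0.04995 in limma. For all 3 genes, settings that leave out an array of ND13 or ND13(N51S) are weak checks. They change the estimate of the spread but not the difference itself. The adjusted p remained above 0.05 throughout, with a lowest value of 0.112 for Hoxb4, 0.194 for Hoxb5 and 0.507 for Hoxb3.

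Genes around the cluster were read beside it. Hoxb1, Hoxb13 and the genes within 500 kb of the cluster numbered 43, of which 14 were measured by 20 probe sets. None of the 20 passed the unadjusted thresholds in any of the 7 comparisons, beside 3.31% to 7.8% of all probe sets. At such shares few of 20 would pass, so this count does not set these genes apart. Their median log2 difference of NA10 from the GFP control was -0.12. Hoxb1, at the Hoxb2 end, read 22.9 to 57.1 in NA10 and 40.3 to 65.0 in the GFP control, and Hoxb13, beyond Hoxb9, was below background on every array.

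Paralogues in the other clusters were read from the same arrays. Of 11 HoxA genes 9 were measured, by 12 probe sets, and 0 passed the adjusted test in any comparison. At the unadjusted thresholds 3 of 12 were higher in NA10 than in the GFP control, namely Hoxa5 (log2 1.76), Hoxa7 (1.45) and Hoxa9 (0.79), with a median of 0.72 over the 12, beside 2.51% of all probe sets higher. The second Hoxa9 probe set did not pass. Hoxa5, the paralogue of Hoxb5, read 582 to 691 in NA10, 362 to 493 in ND13 and 117 to 254 in the GFP control. In ND13 the HoxA median was 0.65, where that of HoxB was -0.25, and 2 of 12 HoxA probe sets were higher, beside 3.43% of all probe sets. No test of this difference was made, and the HoxB median was 0.03 without ND13 replicate 2. In the HoxC cluster (8 probe sets of 6 genes) and the HoxD cluster (7 probe sets of 7 genes) none passed in NA10 or ND13 against the GFP control, and the NA10 medians were -0.25 and -0.16.

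Known regulators and partners of Hox genes were also counted. In NA10 against the GFP control 2.51% of all probe sets were higher and 1.52% lower at the unadjusted thresholds, and in ND13 3.43% were higher. Of 28 probe sets for 16 activators, 1 was higher in NA10, Mllt3 (log2 1.06), a partner of Mll in leukemia fusions, and 2 were lower. These were Mllt1 (-0.89), whose second probe set did not pass, and Cdx2, which was above background on 0 of 3 NA10 and 1 of 3 GFP control arrays. Of 28 probe sets for 12 Polycomb genes 1 was higher in NA10 and 2 in ND13. The one in NA10 was a Cbx8 probe set below background on every array, which also passed in ND13, and the other in ND13 was Ezh1 (0.92). Among 12 probe sets for 8 cofactors 1 passed, as Pbx3, which binds DNA beside Hox proteins, was higher in NA10 (1.16) and in ND13 (1.05) than in the GFP control. Pbx3 was the only gene of these lists to pass the adjusted test, in both active fusions against both controls (log2 1.16, adjusted p = 0.0206 in limma).

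For the HoxB probe sets above background on every array, the genes with the most similar signals over the 12 arrays were sought among 10374 probe sets. Hoxb4 (1460379_at) was most like Wfdc18 (r = 0.93), Ap2a2 (0.93) and Hlf (0.93). The second Hoxb4 probe set was most like Akap8l (0.86), Msto1 (0.82) and Epsti1 (0.81), and Hoxb7 most like Sltm (0.86), Als2cl (0.85) and Brd3 (0.82). None of these genes was shared. These are the highest of 10374 values of r over 12 arrays, a choice that gives high r even for unrelated signals. Their likeness was not tested further. Among the HoxB genes themselves, Hoxb4 correlated at r = 0.64 with Hoxb3 and 0.64 with Hoxb5, and Hoxb3 with Hoxb5 at 0.44, over the 12 arrays with their 4 groups pooled. Hoxb4 and Hoxb7 correlated at -0.42.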

How the data were processed

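MOE430A arrays of 12 samples were used, 3 for each of 4 groups taken from the labels. The authors deposited MAS5 signal intensities on a linear scale for 22690 probe sets, scaled to a common trimmed mean. No aligner or genome build applies. The GC-RMA values of the study were not used here.

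Signals were floored at 0.01, which no value reached, and log2 transformed. After 64 control probe sets were left out, 22626 were tested with limma 3.58.1 in R 4.3.3 (lmFit on all 4 groups, eBayes with trend and robust), with Benjamini-Hochberg adjustment over all of them. A call needed an adjusted p under 0.05 and a 1.5-fold change, and the thresholds of the study (unadjusted p under 0.05, 1.5-fold) and its t-test were counted beside it. With 3 against 3 arrays an exact permutation test cannot go below p = 0.1, so none was used. Bounds of the form "at least" replace a signal below background by the background of its array. Unlabelled folds are differences of mean log2 values, ± is the SD for levels and the SE for differences. The figures used matplotlib 3.10.9 under Python 3.11.15.

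Gene names came from the platform annotation, with 20380 probe sets of 1 gene and 691 of several. All probe sets of the 8 genes are named, the one with the highest mean first for Hoxb4; from the other lists, members past the adjusted test and at most 4 by smallest p; and the 3 probe sets most correlated with each HoxB probe set that was above background on 12 arrays. The members and lists were chosen with earlier results of these data known.

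Pairing by replicate number was checked on the residuals after the group means. Among the brighter probe sets (mean over the median, a choice not fixed beforehand), equal numbers gave r of 0.106 to 0.596 (median 0.364) and unequal numbers -0.422 to 0.107. With every probe set used, r was 0.0308 to 0.156 for equal and -0.105 to 0.025 for unequal numbers. Residuals cancel out within each group, so the r of unequal numbers is not a separate check. In both sets each of the 12 arrays was nearest to one of its own number. Because of this, and because the study names 3 independent experiments, arrays were taken as paired. The 8 HoxB probe sets alone did not show this pairing. In them 5 of the 12 arrays were nearest to one of their own number. Their median r was 0.077 for equal and 0.018 for unequal numbers. Alternatives were the replicate block, a filter on dim probe sets, 32 added to each signal, quantile and median normalisation, plain eBayes, only the groups compared, the t-test of the study, a single probe set for each gene, the shared probe set, and each array left out; leaving out both arrays in doubt was added after seeing the data.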

Additional observations from a re-analysis of the deposited data

Results flagged for a closer look

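For Hoxb3 (1427605_at) all 3 NA10 arrays were above the mean of the GFP control and all 3 ND13(N51S) arrays below it. The ND13(N51S) arrays were all below background, so that no direction can be read from them, and replicate 3 was 1.95-fold above the GFP control of its number. NA10 was at least 2.23-fold higher than ND13(N51S), and the log2 difference of the signals as given was 2.789, with an adjusted p of 0.306 in limma, so that it did not pass. Hoxb7 (1427494_at) had all NA10 arrays below and all ND13(N51S) arrays above the mean of the GFP control, with a difference of -0.4248 and an adjusted p of 0.747. The probe set shared by Hoxb7 and Hoxb8, which entered no count, had a signal of 126.2 in ND13(N51S) replicate 1, above background and above every GFP control array, while the other 11 arrays were below background.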

How the results depend on the processing

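No HoxB probe set passed the adjusted test in any of the 7 comparisons under any of the 24 alternatives, the replicate block included (0 of 8 throughout). The block changed no adjusted HoxB call, and its effect on the unadjusted counts was the 1 for ND13 against the GFP control. The 3 HoxB probe sets past the unadjusted thresholds in NA10 against the GFP control became 1 with the filter on dim probe sets. The filter kept only Hoxb2 and Hoxb4, and 3.01% of all probe sets it kept passed. When an array was left out the count was 2 or 3, beside 3.58% to 4.53% of all probe sets. Without GFP control replicate 3 the count of 3 was not of the same probe sets, since Hoxb3 no longer passed (unadjusted p = 0.153 in limma) and Hoxb6 did (unadjusted p = 0.0228 in limma). Those in ND13 against NA10 went from 3 to 1 without NA10 replicate 1, beside 3.19% of all probe sets in that setting. ND13(N51S) against the GFP control went from 0 to 2 without GFP control replicate 3, beside 6.99% of all probe sets in that setting. Over all probe sets the replicate block raised the called counts from 20 to 67 for ND13 and from 3 to 9 for NA10 against the GFP control. The cause was not tested. Signal over background limits Hoxb3 and Hoxb5, which were dim outside NA10, and Hoxb6 and Hoxb9, which were dim in every group.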
